A study of Mus musculus with 13 samples.

Results

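The genes described are 10 regulators of the G1 phase of the cell cycle: the D cyclins Ccnd1, Ccnd2 and Ccnd3, the E cyclins Ccne1 and Ccne2, the cyclin-dependent kinase (CDK) inhibitors Cdkn1b, Cdkn2a and Cdkn2b, the kinase Cdk6 and the retinoblastoma gene Rb1. They were taken from the expression table by symbol, and each symbol matched 1 of the 25965 gene rows. RNA-seq had been performed on 13 libraries of female mouse embryonic stem cells (mESCs), an F1 of FVB and CAST parents, and the labels do not say how many lines were used. The Day0 library was made from undifferentiated cells grown in 2i medium, without virus. The other 12 were made on days 4, 5, 6 and 7 of differentiation, which was induced by weaning in daily steps from 2i into DME HiHi medium. These cells were given a retroviral short hairpin RNA on day 2, while weaning was under way, and selected with puromycin from day 3. On each of these days there was 1 library with the non-silencing control hairpin (Nons) and 1 with each of 2 hairpins against Smarcc1, named Smarcc1.6 and Smarcc1.7. All 3 arms were transduced and selected alike. Hairpins lower the transcript without removing the gene, and the cells were harvested in bulk, so a change in the number of cells of a type and a change in RNA per cell cannot be told apart. The labels do not say whether the days of an arm are 1 culture or several, and p-values measure the spread between these libraries over days.

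Entry into S phase is governed by a short chain of proteins. D cyclins bind CDK4 or CDK6, E cyclins bind CDK2, and both kinase pairs phosphorylate RB, which then releases E2F factors that switch on S phase genes. The INK4 inhibitors p16 (from Cdkn2a) and p15 (from Cdkn2b) act on CDK4 and CDK6, while p27 (from Cdkn1b) acts mainly on CDK2 pairs. A further product of Cdkn2a, p19Arf, stabilises p53 and is read from its own upstream start. A short G1 phase is known for mESCs, and G1 lengthens as they differentiate. Whether this holds for the cells used here was not tested. Smarcc1 encodes BAF155, a scaffold of the BAF chromatin remodeller, which slides and evicts nucleosomes.

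The hairpins were designed against different stretches of the Smarcc1 coding sequence, and these are shown because the knockdown comparison rests on them. In the GRCm38 genome, with GENCODE M21 transcripts, the Smarcc1.6 site lies at chr9:110177472-110177493 in exon 13 and the Smarcc1.7 site at chr9:110173911-110173932 in exon 11 of a transcript with 29 exons, both on the plus strand. Each site is the 22-base reverse complement of the guide in the hairpin.
Smarcc1.6 target site: gcaggatgaagaagcagttaca
Smarcc1.7 target site: tcagaaggaagaagatgagcaa

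Smarcc1 itself was lower than in Nons in every hairpin library. Against the Nons library of the same day its log2 CPM (CPM being reads scaled to a common library size) differed by -1.68, -1.47, -0.995 and -0.61 in Smarcc1.6 on days 4, 5, 6 and 7, and by -1.14, -1.08, -1.11 and -0.38 in Smarcc1.7. The deficit was thus smallest on day 7 with both hairpins. Over the 8 hairpin libraries the fitted difference was -1.06 ± 0.14 (SE, limma adjusted p = 0.00232). Depth ran from 13993440 to 63548092 mapped reads per library. In Day0 and the 3 day 6 libraries 85.3% to 86.5% of mapped reads fell in genes, against 91.6% to 92.6% in the other 9, so levels set across these sets differ in this respect too. Calls are therefore also given without day 6. Smarcc1 was then at -1.06 over both hairpins (limma adjusted p = 0.0256) and still called with Smarcc1.6 (-1.25, limma adjusted p = 0.0199), but no longer with Smarcc1.7 (-0.87, limma adjusted p = 0.152). As sums, the marker lists had the pattern of mESCs leaving the pluripotent state. The 5 pluripotent cell markers summed to 4151 CPM in Day0 and to between 1079 and 2442 CPM in the other 12 libraries, with none at 0. Not every marker fell steadily: Pou5f1 was at 10.24 log2 CPM in Day0 and 10.54 in Nons on day 6. Nanog, at 10.47 in Day0, was at 6.43 in Nons on day 4 and 7.94 on day 7. The 5 fibroblast and smooth muscle markers (Acta2, Tagln, Col1a1, Col3a1 and Postn) summed to between 2.92 and 3.03 CPM on day 4 and to between 982 and 1244 CPM on day 7.

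All 10 genes passed the filter on low values, which 13406 genes passed and which asks for a mean of at least 0 log2 CPM across days 4 to 7. Levels of different genes are compared here per kilobase of exon, as log2 CPM per kb. The length is that of all annotated exons of a gene together, whichever transcripts the cells make. The SD is over the 12 libraries and includes the change over days. Ccne1 was the most abundant at 6.31 ± 0.65, followed by Ccnd1 at 4.95 ± 0.38, Ccnd3 at 4.60 ± 0.65, Cdkn2a at 3.98 ± 0.40 and Ccne2 at 3.57 ± 0.48. Cdkn2b at 2.40 ± 0.70, Cdkn1b at 2.20 ± 1.35 and Rb1 at 2.05 ± 0.22 formed a middle range, and Ccnd2 at 0.19 ± 0.38 and Cdk6 at -0.25 ± 0.80 were lowest. Neighbours in this order lay within the larger of their 2 SDs, except for the steps from Ccne1 to Ccnd1, from Ccne2 to Cdkn2b and from Rb1 to Ccnd2. The fewest reads behind any value were 67 for Cdkn2b, 115 for Cdk6 and 127 for Ccnd2, where counting error alone is 0.18, 0.13 and 0.13 on the log2 scale. The plot of levels by day gives every value.

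**Figure D1:**
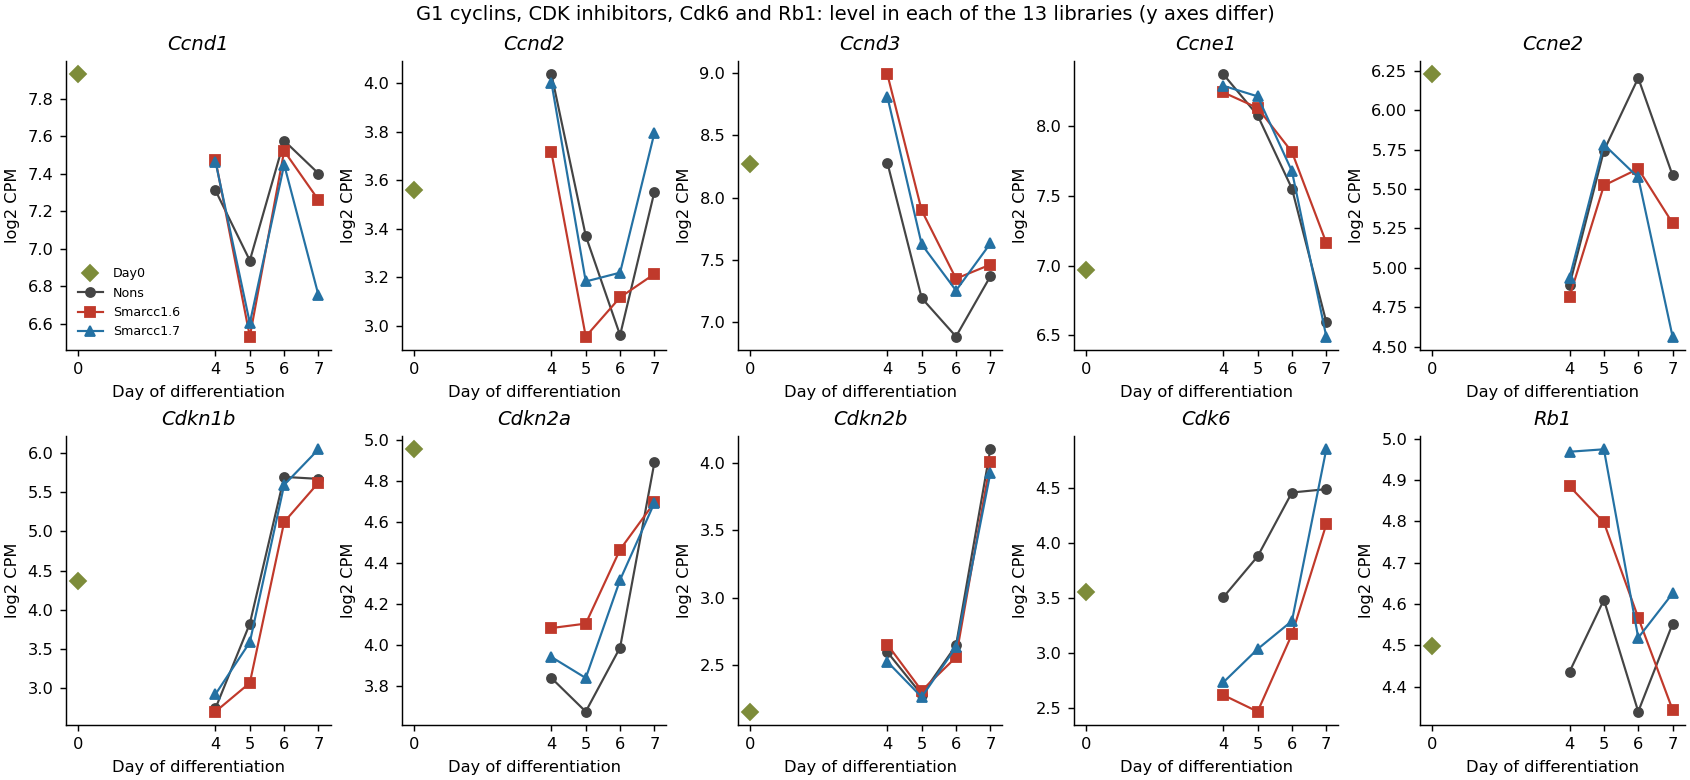
Level of each of the 10 genes in log2 CPM (y axes differ between panels) against day of differentiation in Day0 (diamond), Nons (circles), Smarcc1.6 (squares) and Smarcc1.7 (triangles), with 1 library per point. Nons lies below both hairpins for Ccnd3 on all 4 days and above both for Cdk6 on days 4, 5 and 6, while Cdkn1b and Cdkn2b end far above their day 4 levels in all 3 arms.

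Whether loss of Smarcc1 altered these genes was asked by comparing both hairpins with Nons within each day. Ccnd3 was higher with the Smarcc1 hairpins and Cdk6 was lower, and the other 8 genes did not pass the test. These 2 of 10 genes, 1 in each direction, stand beside 11.6% of all tested genes called in this comparison, 6.88% higher and 4.77% lower. The median change of the 10 genes was -0.06 and that of all tested genes -0.01 on the log2 scale. The 2 hairpin comparisons share the 4 Nons libraries and are not independent of each other.

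Ccnd3 encodes cyclin D3, a partner of CDK4 and CDK6. Its level in Nons was 8.28, 7.20, 6.89 and 7.37 log2 CPM on days 4, 5, 6 and 7. In Smarcc1.6 it was 8.99, 7.90, 7.35 and 7.46, and in Smarcc1.7 it was 8.81, 7.63, 7.26 and 7.63. Nons was the lowest of the 3 libraries on each of the 4 days, although the groups overlap when days are pooled because the level fell in all of them. The same-day difference was 0.71, 0.70, 0.46 and 0.09 in Smarcc1.6 and 0.53, 0.43, 0.37 and 0.26 in Smarcc1.7, so that with both hairpins it was smallest on day 7. The fitted difference for both hairpins was 0.45 ± 0.08 (log2, SE), a 1.36-fold higher level (limma adjusted p = 0.00663). Smarcc1.6 against Nons gave 0.49 ± 0.09 (limma adjusted p = 0.0108), in a comparison that called 9.3% of genes. Smarcc1.7 against Nons gave 0.40 ± 0.09 and missed the threshold (limma adjusted p = 0.0512), in a comparison that called 2.45% of genes. The hairpins did not differ detectably from each other for Ccnd3, at -0.09 ± 0.09 (Smarcc1.7 minus Smarcc1.6, limma adjusted p = 0.989). Without day 6 the difference from Nons was 0.46 and lost its call (limma adjusted p = 0.0521), whereas it kept it when any other day or any 1 library was left out. Ccnd3 (chr17:47505051-47599683) overlaps Bysl on the opposite strand, and whether counting used strand is not given in the sources used here, so reads of the 2 genes may not be fully separated.

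Cdk6 (chr5:3343893-3523218, plus strand) encodes a kinase that D cyclins activate. Its level in Nons was 3.51, 3.88, 4.46 and 4.49 log2 CPM on days 4 to 7, in Smarcc1.6 it was 2.62, 2.47, 3.17 and 4.17, and in Smarcc1.7 it was 2.74, 3.04, 3.29 and 4.86. On days 4, 5 and 6 both hairpin libraries lay below the Nons library, and on day 7 Smarcc1.6 lay below it and Smarcc1.7 above it. The same-day difference was -0.89, -1.41, -1.29 and -0.32 in Smarcc1.6 and -0.77, -0.84, -1.17 and 0.36 in Smarcc1.7. The fitted difference was -0.79 ± 0.20 (SE, limma adjusted p = 0.0263), or 57.8% of the Nons level. It was -0.98 ± 0.21 for Smarcc1.6, at 50.8% of Nons (limma adjusted p = 0.0183), and -0.61 ± 0.21 for Smarcc1.7, at 65.7% of Nons and not called (limma adjusted p = 0.141). The difference between the hairpins, 0.37 ± 0.21, was not called either (limma adjusted p = 0.989). The Cdk6 call is less secure than that of Ccnd3: it was lost in 7 of 16 fits, each without a day or without a library, among them those without day 4 (-0.78, limma adjusted p = 0.065), day 5 (-0.68, limma adjusted p = 0.133) and day 6 (-0.65, limma adjusted p = 0.169). Leaving out only the Nons library of day 5 or of day 6, the Smarcc1.6 library of day 6 or the Smarcc1.7 library of day 6 also ended it, at limma adjusted p of 0.123, 0.124, 0.0558 and 0.0515. The exons of Cdk6 are overlapped by the antisense gene Gm17590 on the opposite strand, and as with Ccnd3 their reads may not be fully separated.

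Sums over the cell type marker lists also differed between the arms, and how they did so depended on the day. The 3 mesoderm markers (T, Mixl1 and Eomes), none of them at 0 in any library, summed to 40.3, 32.7, 110.9 and 323 CPM in Nons on days 4 to 7, to 50.4, 20.5, 23.8 and 67.5 CPM in Smarcc1.6, and to 45.7, 21.4, 22.4 and 32.2 CPM in Smarcc1.7. The 4 endoderm markers (Gata4, Gata6, Sox17 and Foxa2), also none at 0, summed to between 4.57 and 23.9 CPM in Nons, 3.99 and 10.99 in Smarcc1.6 and 3.29 and 10.9 in Smarcc1.7. The mesoderm sum was higher with both hairpins on day 4 and lower with both on days 5, 6 and 7. It lay furthest below Nons on day 7. The endoderm sum was lower with both hairpins on each of the 4 days, but not every marker was. On day 6 Gata6 (-1.05 log2 CPM in Nons against 0.03 and 0.10) and Gata4 (1.27 against 1.47 and 1.29) were higher with both hairpins. Sox17 (2.09 against 0.45 and 0.68) and Foxa2 (0.70 against -1.76 and -2.41) were lower with both on that day. Other lists were higher with the hairpins on the later days. The 3 primed epiblast markers (Fgf5, Otx2 and Dnmt3b) were at 1287 CPM in Nons against 961 and 1002 CPM in Smarcc1.6 and Smarcc1.7 on day 4, but at 1303 against 1420 and 1549 on day 5, 955 against 1605 and 1525 on day 6 and 469 against 657 and 562 on day 7. These sums are mostly Dnmt3b, at 10.14 log2 CPM in Nons against 10.27 and 10.39 on day 5. Fgf5 was lower with both hairpins on that day (6.48 against 5.74 and 6.10) and Otx2 higher (6.44 against 7.05 and 7.14). On days 6 and 7 each of the 3 was higher with both. The 3 neural markers (Sox1, Pax6 and Neurog2) were at 8.61 CPM in Nons against 26.3 and 20.03 CPM on day 6 and at 6.03 against 10.5 and 7.92 CPM on day 7, with 1 of the 3, Neurog2, at 0 in 2 libraries. The 3 trophoblast markers ranged from 4.87 to 11.3 CPM over these days. Fibroblast and smooth muscle markers summed to 648 CPM in Nons on day 6 against 220 and 357 CPM with the hairpins, but to 982 CPM in Nons on day 7 against 1244 and 1170 CPM. These sums are mostly Tagln, at 9.20 log2 CPM in Nons against 7.63 and 8.37 on day 6 and 9.60 against 9.91 and 9.86 on day 7. Each marker was lower with both hairpins on day 6. On day 7 each was higher with both except Col3a1 (0.63 in Nons against 1.33 and -0.46). Of these markers Postn was at 0 reads in 6 libraries. The pluripotent cell markers summed to 1488 CPM in Nons against 2442 and 2042 CPM in Smarcc1.6 and Smarcc1.7 on day 4. They summed to 1453 against 1884 and 1615 CPM on day 5, 1725 against 1695 and 1833 CPM on day 6 and 1080 against 1339 and 1079 CPM on day 7. The day 6 sum is mostly Pou5f1, at 10.54 log2 CPM in Nons against 10.35 and 10.58. Nanog was at 7.00 in Nons against 7.25 and 6.98, so that neither gene was higher with both hairpins on day 6. Zfp42 (4.46 in Nons against 5.70 and 5.36), Esrrb (4.05 against 5.46 and 4.81) and Sox2 (6.09 against 7.11 and 6.73) were higher with both on that day. Zfp42, Esrrb and Sox2 were also higher with both hairpins on days 4, 5 and 7. On day 7 Zfp42 was at 3.97 in Nons against 4.94 and 4.38, Esrrb at 3.01 against 3.88 and 3.46 and Sox2 at 3.69 against 4.94 and 4.95. The part of these markers in the Cdk6 and Ccnd3 differences was not tested.

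Rb1 encodes the pocket protein that holds E2F factors in check. Its same-day difference was 0.45, 0.19, 0.23 and -0.21 in Smarcc1.6 and 0.53, 0.36, 0.18 and 0.07 in Smarcc1.7. The fitted 0.23 ± 0.09 (SE) did not pass (limma adjusted p = 0.135), but without day 7 it was 0.32 and passed (limma adjusted p = 0.0321). Rb1 overlaps Rcbtb2 and Lpar6 on the opposite strand and Gm17233 on its own. Ccne2, an E cyclin gene that overlaps Ints8 on the opposite strand, gave -0.34 ± 0.14 (limma adjusted p = 0.13). Its same-day differences lay between -0.22 and 0.05 on days 4 and 5, and it was lower with both hairpins on days 6 (-0.58 and -0.63) and 7 (-0.30 and -1.02). The remaining 6 genes had fitted differences between -0.17 (Ccnd1) and 0.17 (Cdkn2a), with SEs between 0.09 and 0.15 and limma adjusted p between 0.291 and 0.784. Among them Cdkn2b was closest to Nons, with 8 same-day differences between -0.18 and 0.06. Ccne1, the most abundant of the 10 genes per kb, had same-day differences between -0.13 and 0.57 and a fitted 0.10 ± 0.10. Cdkn1b was at -0.36 ± 0.13 in Smarcc1.6 and 0.05 ± 0.13 in Smarcc1.7, and higher in Smarcc1.7 than in Smarcc1.6 on each of the 4 days, by 0.22 to 0.52. This difference between the hairpins, 0.41 ± 0.13, did not pass the correction over all genes (limma adjusted p = 0.989). No gene did (0% of 13406, or 530 by unadjusted p under 0.05). The plot of same-day differences sets these values side by side.

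**Figure D2:**
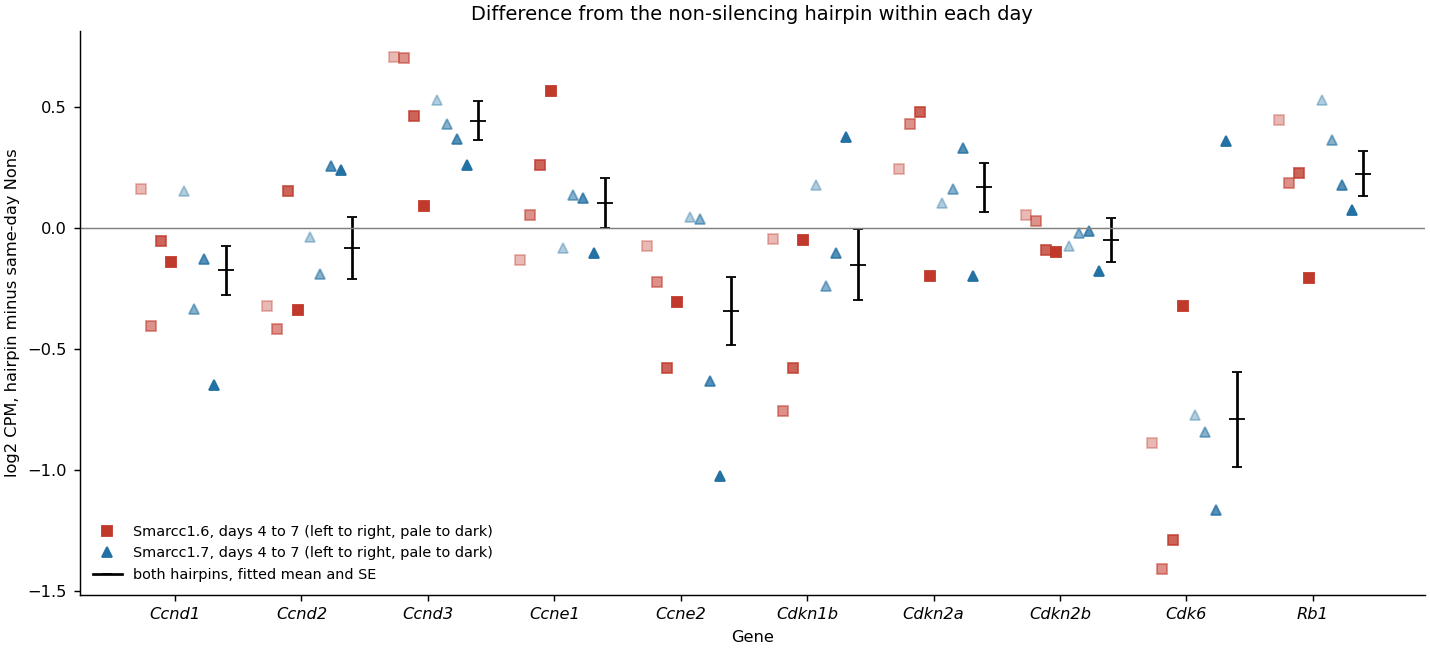
Difference in log2 CPM between each Smarcc1 hairpin library and the Nons library of the same day, for Smarcc1.6 (squares) and Smarcc1.7 (triangles) on days 4 to 7 from left to right, with the fitted mean and SE of both hairpins in black. All 8 points of Ccnd3 lie above 0, and for Cdk6 1 point, Smarcc1.7 on day 7 at 0.36, lies above 0.

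The balance among the D cyclins was examined next, as the share of each in their summed CPM per kb. Ccnd3 made up 50.0%, 38.1%, 24.6% and 33.7% of D cyclin transcripts in Nons on days 4 to 7. In Smarcc1.6 it made up 59.7%, 57.0%, 31.8% and 37.5%, and in Smarcc1.7 56.6%, 51.0%, 31.4% and 48.1%. The share was thus higher with both hairpins on each of the 4 days. The Ccnd1 share was 47.5%, 59.4%, 73.9% and 64.1% in Nons, against 38.9%, 41.2%, 66.6% and 60.7% in Smarcc1.6 and 41.5%, 46.8%, 66.8% and 48.7% in Smarcc1.7. By this measure Ccnd1 took the larger share in Nons from day 5 on, whereas on day 5 Ccnd3 was ahead with both hairpins. In CPM not divided by length Ccnd3 was ahead in Nons on day 5 too, at 146.6 against 122.6 for Ccnd1. The order of the 2 genes thus depends on the exon length used, 8775 bases for Ccnd3 and 4709 for Ccnd1. Ccnd1 is overlapped by LTO1 on the opposite strand, and Ccnd2 by Gm43126 and 9330179D12Rik. As with Ccnd3, their reads may not be fully separated. Ccnd2 stayed between 1.42% and 3.14% in all 13 libraries. With Ccnd2 so small, the Ccnd1 share has to be lower where the Ccnd3 share is higher, and is no separate result. The Ccnd1 level itself was higher than in Nons on day 4, by 0.16 in Smarcc1.6 and 0.15 in Smarcc1.7 (log2). On days 5, 6 and 7 it was lower with both hairpins. Among the E cyclins, Ccne2 made up 31.4% in Day0 and between 6.38% and 6.93% on day 4. It then reached 27.5% in Nons on day 7 against 17.1% and 16.7% with the hairpins. These shares come from 1 library each and are given without a test.

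**Figure D3:**
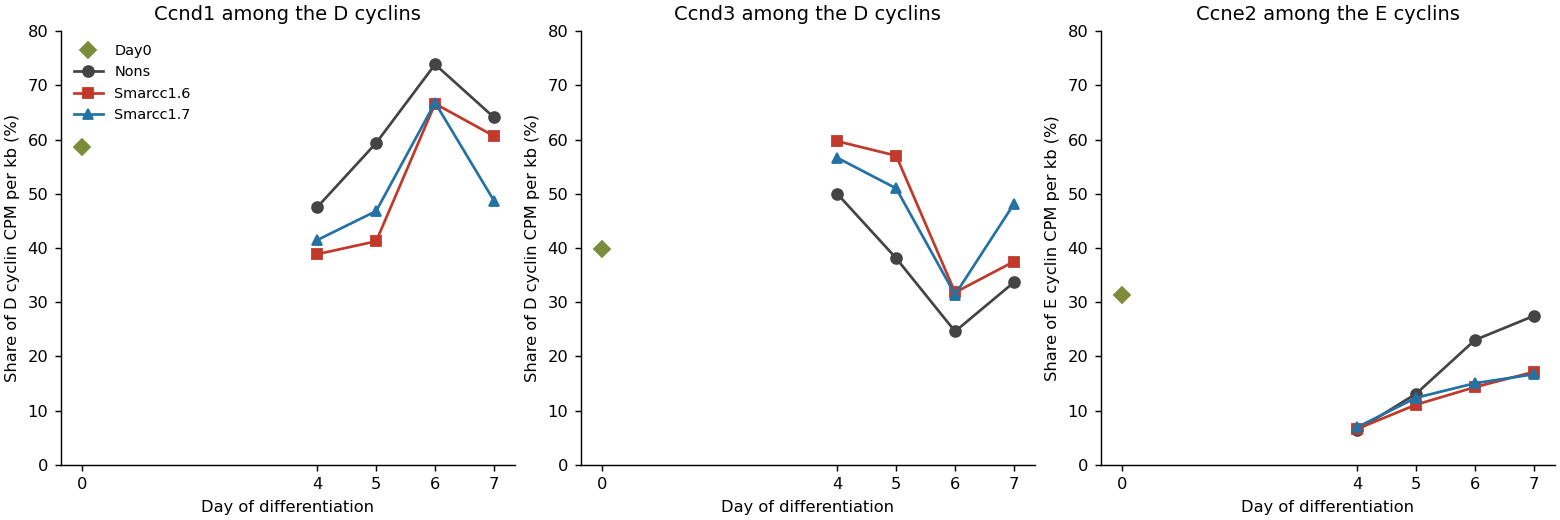
Share (percent) of Ccnd1 and Ccnd3 in the summed CPM per kb of the 3 D cyclins, and of Ccne2 in that of the 2 E cyclins, against day of differentiation, with 1 library per point. On days 4 to 7 the Ccnd3 share is higher with both hairpins than in Nons. The Ccnd1 share is lower, as it has to be with a Ccnd2 share so small. The Ccne2 share separates from Nons on days 6 and 7.

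More of these genes changed over days of differentiation than between the Smarcc1 hairpins and Nons. Over days 4 to 7, with the 3 arms fitted with 1 common slope, 4 genes rose and 2 fell, beside 60.5% of all tested genes called, 34.9% higher and 25.6% lower. The 6 of 10 are close to the share in the whole table. Without day 6 the 6 genes kept their calls and directions, with slopes between -0.54 (Ccne1) and 1.02 (Cdkn1b) and limma adjusted p between 2.42e-05 and 0.0169, and the other 4 were again not called. When each library was centred on the median of its autosomal genes, the direction of the 6 calls did not change, while the split of all calls went from 4679 higher and 3435 lower to 3574 higher and 4731 lower.

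The genes that rose were the 3 inhibitors and Cdk6. Cdkn1b (chr6:134920401-134925513, plus strand), encoding p27, had the steepest slope of the 10, at 1.10 ± 0.11 log2 per day (SE, limma adjusted p = 1.2e-05). It stood at 4.37 log2 CPM in Day0, at 2.74, 2.70 and 2.92 on day 4 in Nons, Smarcc1.6 and Smarcc1.7, and at 5.67, 5.62 and 6.05 on day 7, so that it was below Day0 on day 4 and above it on day 7 in all 3 arms. The day 7 level was 7.61, 7.58 and 8.73 times that of day 4. Most of this took place between days 5 and 7, with differences of 1.85, 2.56 and 2.46. The steps from day 5 to day 6 were 1.87, 2.05 and 2.01. The day 6 libraries belong to the set with fewer reads in genes, and the part of that in these steps was not tested. Without day 6 the call remained, as it did in all 16 fits without a day or library, where the slope ranged from 1.02 to 1.34. Cdkn2b (chr4:89306289-89311032, minus strand), encoding p15 and next to Cdkn2a (chr4:89274473-89294653, minus strand), behaved as a late step: it was between 2.26 and 2.65 on days 4, 5 and 6 in all 9 libraries and between 3.93 and 4.10 on day 7. Its slope of 0.46 ± 0.12 (limma adjusted p = 0.00854) rests on day 7 and was 0.01 without it (limma adjusted p = 0.928). Cdkn2a was at 4.96 in Day0, above all 12 later libraries, and at 3.84, 4.08 and 3.94 on day 4 in Nons, Smarcc1.6 and Smarcc1.7. It reached 4.89, 4.70 and 4.69 on day 7, with a slope of 0.28 ± 0.06 (limma adjusted p = 0.00195) that was 0.15 without day 7 and no longer called (limma adjusted p = 0.0901). On days 4, 5 and 6 both hairpin libraries were above Nons for Cdkn2a, by 0.10 to 0.48, and on day 7 both were below, by 0.20. Cdk6 rose by 0.52 ± 0.09 per day (limma adjusted p = 0.000594), and day 7 was 1.98 times day 4 in Nons, 2.93 times in Smarcc1.6 and 4.34 times in Smarcc1.7.

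Ccne1 and Ccnd3 fell. Ccne1 (chr7:38097984-38107534, minus strand), an E cyclin that drives CDK2, first stood higher than in Day0, at 8.37, 8.24 and 8.29 log2 CPM on day 4 in Nons, Smarcc1.6 and Smarcc1.7 against 6.96 in Day0. Day0 belongs to the set with fewer reads in genes, and the part of that in this difference was not tested. Ccne1 then declined on each successive day in every arm to 6.59, 7.16 and 6.49 on day 7. Its slope was -0.51 ± 0.07 per day (limma adjusted p = 0.000105) and it stayed called in all 16 fits without a day or library. Ccnd3 fell at -0.40 ± 0.11 per day (limma adjusted p = 0.00723). This decline rests on day 4, since the slope without that day was -0.04 (limma adjusted p = 0.753), the level having gone down between days 4 and 6 and up again between days 6 and 7 in all 3 arms. Ccne2 followed another course than Ccne1: it was 6.23 in Day0, 4.82 to 4.94 on day 4, 5.57 to 6.20 on day 6 and 4.56 to 5.59 on day 7. Its slope of 0.09 ± 0.12 was not called (limma adjusted p = 0.526), but without day 7 it was 0.46 (limma adjusted p = 0.00561). Ccnd1 was 7.93 in Day0, above all 12 later libraries, which ranged from 6.53 to 7.58 with the lowest value of each arm on day 5. Ccnd2 ranged from 2.95 to 4.04 with no call on its slope (-0.13 ± 0.09, limma adjusted p = 0.262), and without day 7 its slope was -0.41 and was called (limma adjusted p = 0.00915). Rb1 varied least, between 4.34 and 4.97 in all 13 libraries, with a slope of -0.11 ± 0.04 (limma adjusted p = 0.0546) that was -0.19 and called after centring on the autosomal median (limma adjusted p = 0.00392). Whether the slope differed between knockdown and Nons was tested as well, and no gene was called (0% of 13406, or 682 by unadjusted p under 0.05). Of the genes described Rb1 had the lowest p in that test, with a slope difference of -0.17 ± 0.08 per day (limma adjusted p = 0.998).

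The Cdkn2a row cannot separate p16 from p19Arf, whose transcripts start at different places and share later exons. The windows around both starts (RefSeq, GRCm38.p6, 250 bases before to 50 after each start) were therefore read for E2F motifs, since p19Arf is a textbook E2F target. Of the 10 genes 6 had a window, with 8 windows in all, and Ccnd1, Ccnd2, Ccne2 and Rb1 had none. The letters searched were TTTCCCGC, TTTCGCGC, TTTGCCGC and TTTGGCGC on both strands, which occur in 2.26% of 32817 windows of the same length. A match was found in 1 of the 8, at the upstream start of Cdkn2a and beginning 99 bases before it. That window holds 45 CpG dinucleotides and the downstream one 12, against a median of 7 over all windows, and the Ccne1 window holds 41. The first 200 bases of both Cdkn2a windows are shown on the minus strand, with the matched letters in capitals.
Cdkn2a upstream start, chr4:89294670-89294869: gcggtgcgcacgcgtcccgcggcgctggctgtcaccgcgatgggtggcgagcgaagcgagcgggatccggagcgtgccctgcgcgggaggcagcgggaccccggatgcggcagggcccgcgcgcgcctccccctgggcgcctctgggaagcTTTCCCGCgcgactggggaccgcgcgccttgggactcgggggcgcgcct
Cdkn2a downstream start, chr4:89282243-89282442: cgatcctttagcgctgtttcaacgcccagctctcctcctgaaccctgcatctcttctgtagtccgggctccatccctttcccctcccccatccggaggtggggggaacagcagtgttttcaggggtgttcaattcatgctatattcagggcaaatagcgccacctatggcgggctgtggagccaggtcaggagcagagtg

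The rest of the pathway was followed through 8 lists of genes around the 10, and is shown in the plot of pathway changes. In the knockdown comparison 6 of the 68 tested list genes were called (8.82%), beside 11.6% of all tested genes. Of the 17 E2F-driven S phase genes 1 was higher and none lower, with a median change of 0.03. That gene was Mybl2, a transcription factor gene read in S phase cells, at 0.50 ± 0.07 (SE, limma adjusted p = 0.00349), and it was the only list gene called for Smarcc1.7 against Nons as well (0.43 ± 0.08, limma adjusted p = 0.0283). Of the 12 pocket protein, E2F and DP genes 3 were lower and none higher, with a median of -0.14. These were E2f7, an E2F that represses (-0.38 ± 0.10), E2f3, an activating E2F (-0.30 ± 0.07), and Tfdp1, the DP partner (-0.26 ± 0.07), at limma adjusted p of 0.0278, 0.0197 and 0.043. Of the 6 tested kinases and cyclins of G1 and S, Cdk2 was lower (-0.23 ± 0.07, limma adjusted p = 0.0475). Of the 7 tested genes for turnover of p27 and cyclins, Skp1a, a subunit of SCF ubiquitin ligases, was higher (0.26 ± 0.05, limma adjusted p = 0.0137). None of the 4 other CDK inhibitors, 5 mitogen response genes, 7 tested regulators of the Ink4 locus and 10 genes of G2 and mitosis was called. Smarcc1.6 against Nons called 5 of the 68 list genes (7.35%), beside 9.3% of all tested genes, and Smarcc1.7 against Nons called 1 (1.47%), beside 2.45%. For Smarcc1.6 against Nons Mycn, of the mitogen response list (0.39 ± 0.09, limma adjusted p = 0.0234), and Bmi1, a Polycomb subunit known to repress the Ink4 locus (0.44 ± 0.12, limma adjusted p = 0.0488), were also higher. Without day 6, a fit added for these lists after seeing the data, 1 of the 6 calls for both hairpins remained, that of Mybl2 (0.49, limma adjusted p = 0.027). It was also the 1 of 5 calls for Smarcc1.6 that remained (0.54, limma adjusted p = 0.0379), and its call for Smarcc1.7 was lost (0.44, limma adjusted p = 0.166). Calls over all 13406 tested genes also went down without day 6. They went from 1561 to 287 for both hairpins, from 1247 to 202 for Smarcc1.6 and from 329 to 1 for Smarcc1.7. No call changed direction.

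Over days 4 to 7, 45 of the 68 list genes were called (66.2%), beside 60.5% of all tested genes (34.9% higher and 25.6% lower), and the S phase list fell for the most part. Of its 17 genes 12 were lower and 1 higher per day, with a median of -0.27 against 0.04 for all tested genes, and the steepest falls were those of Mybl2 (-0.72 ± 0.10) and Ung, a uracil glycosylase gene (-0.56 ± 0.04), while Tyms, for thymidylate synthesis, was higher (0.19 ± 0.06). Of the 12 pocket protein, E2F and DP genes 5 were lower and 3 higher, E2f2 (-0.81 ± 0.09) and E2f8 (-0.55 ± 0.05) falling most and E2f7 rising most (0.45 ± 0.08). Of the 10 genes of G2 and mitosis 3 were higher and 1 lower, with a median of 0.06. Of the 4 other CDK inhibitors Cdkn2d (0.38 ± 0.06) and Cdkn1a (0.17 ± 0.05) were higher and Cdkn1c lower (-0.32 ± 0.07). Of the 7 tested regulators of the Ink4 locus 3 were lower and 3 higher. Bmi1 (-0.81 ± 0.07) and Id1 (-0.79 ± 0.09), a known inhibitor of ETS factors at that locus, fell most, and Ets1 (1.53 ± 0.09) and Ets2 (0.53 ± 0.11), which are known to act on the p16 promoter, rose most. All values named in this paragraph passed the threshold, with limma adjusted p of 0.0165 or lower. Without day 6, 42 of the 45 list calls remained, including every gene named here.

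**Figure D4:**
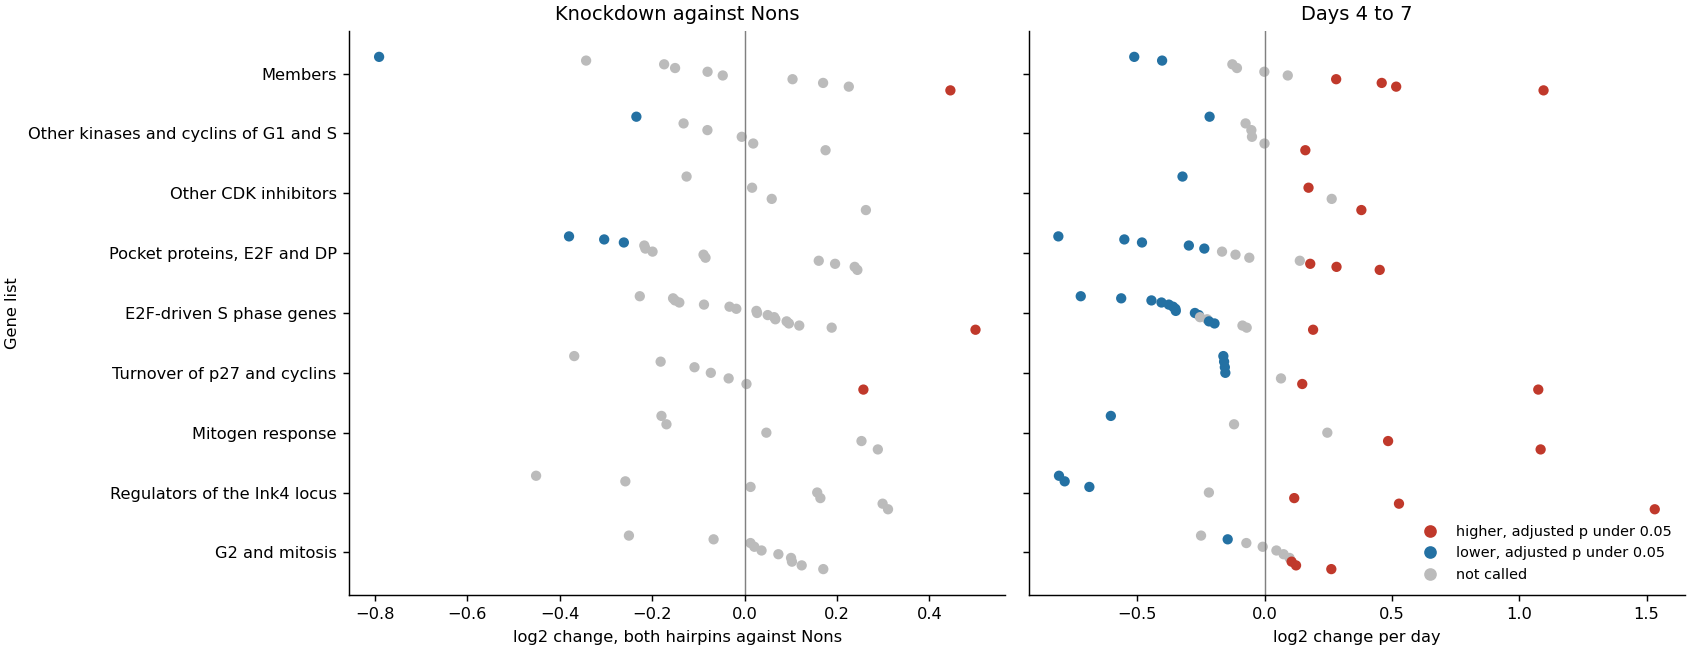
Fitted log2 change for both hairpins against Nons (left) and per day over days 4 to 7 (right) for the 10 genes (Members) and 8 pathway lists, with 1 point per gene. Red and blue points are higher and lower at a limma adjusted p under 0.05, and grey points were not called, so that in the left panel Cdk6 at -0.79 and Mybl2 at 0.50 are the outermost calls while in the right panel 12 of 17 S phase genes are blue.

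The genes whose 12 values over days 4 to 7 followed those of each of the 10 most closely are given as a description, since all such points share libraries and days. Cdk6 was followed most closely by Sox17, an endoderm transcription factor gene (Pearson r = 0.983, n = 12 libraries). Ccne1 was closest to Aoah (r = 0.998), Cdkn1b to Chrnb1 (r = 0.994), Ccnd3 to Manba (r = 0.989), Cdkn2b to Dbi (r = 0.977) and Cdkn2a to Prrx2 (r = 0.963). For Ccne2, Ccnd2, Ccnd1 and Rb1 the best matches were Ept1 (r = 0.956), Gtf2ird1 (r = 0.936), Utp3 (r = 0.915) and Mybl1 (r = 0.904). Within the 10 genes Ccne1, which fell over days, ran against the genes that rose. Its r was -0.90 to Cdkn2b, -0.86 to Cdkn2a, -0.86 to Cdkn1b and -0.82 to Cdk6 over the same 12 libraries, so this was not particular to the inhibitors.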

How the data were processed

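Per the labels and the study's methods, the authors sequenced paired-end TruSeq RNA libraries, trimmed the reads, aligned them to mm10 with strain SNPs masked (TopHat2 2.0.12 is named in the submitters' processing notes, tophat or hisat2 in the methods) and counted them per gene in Seqmonk. The deposited values are log2 CPM per gene, both alleles together. The strand setting and annotation release are not given in the sources used here. Columns were assigned by title, and all 13 were used. The log2 values fell on whole reads (100% of low values, tolerance 0.02 reads, with 0 reads written as 0.9), which gave the depths. Floors and counting errors cover counting error only.

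The 13406 of 25965 genes whose mean over days 4 to 7 was 0 log2 CPM or more were fitted with limma 3.58.1 in R 4.3.3 (eBayes with trend), and p was adjusted over all of them by Benjamini-Hochberg, with calls at 0.05. Day was a factor in the knockdown and hairpin fits, days standing in for replicates, since there was 1 library per group and day. A slope per day was fitted beside the 3 group means, and a further fit held the product of knockdown and day. Day0 entered no test. In simulated data for 13406 genes the knockdown fit recovered 88.5% of 200 genes changed by 0.5 and 100% of those changed by 1 on the log2 scale. Of its calls there, 5.85% and 9.09% were false. How far these shares hold for the measured libraries was not tested. The same-day samples share a day by design, so day served as the pairing block.

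Named were the 10 genes, Smarcc1, pathway list genes called for knockdown or a hairpin, up to 2 rises and 2 falls per list over days, and the closest pattern per gene. The genes and lists were chosen with earlier results of these data known. Coordinates and exon lengths came from GENCODE M21 (same build), promoter windows from RefSeq (GRCm38.p6). Python 3.11.15, numpy 2.4.6, pandas 2.3.3 and matplotlib 3.10.9 were used. Alternatives changed the filter, centring, log2(CPM + 1), depth, trend, block and hairpins, or left out each day or library.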

Additional observations from a re-analysis of the deposited data

Results flagged for a closer look

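In 1 of 50 sets of 4 values (each gene's level over days within an arm, or its same-day differences for a hairpin), a value stood apart from the other 3 beyond Dixon's 95% limit. It was the Ccnd2 difference of Smarcc1.6 from Nons on day 6, at 0.16 log2, against -0.32, -0.42 and -0.34 on days 4, 5 and 7. Chance alone marks about 1 set in 20. The day 6 libraries also had a lower share of reads in genes, and the part of that in the Ccnd2 value was not tested.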

How the results depend on the processing

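The number of genes called changed when the day term or a hairpin was left out. With no replicate block, that is without pairing libraries by day, knockdown against Nons called 4 genes (522 at an unadjusted p under 0.05), Smarcc1.6 0 (353 unadjusted) and Smarcc1.7 0 (238 unadjusted), against 1561, 1247 and 329 with limma as reported, and Ccnd3 and Cdk6 were then not called. With the Nons and Smarcc1.6 libraries alone 57 genes were called, and with Nons and Smarcc1.7 alone 0 (2363 unadjusted), where fewer samples enter the fit. Neither Ccnd3 (limma adjusted p = 0.0932 and 0.0722) nor Cdk6 (0.0779 and 0.239) was called in those 2 fits. Smarcc1.7 against Nons called 188 genes with the filter at a mean log2 CPM of 2 and 145 with no trend. Smarcc1.7 against Smarcc1.6 called 2 genes with no filter and 0 otherwise. Leaving out a day or a library gave 287 to 2003 genes for knockdown, 178 to 1694 for Smarcc1.6, 1 to 1052 for Smarcc1.7 and 6679 to 8371 for the change per day; the lowest count came without day 6 for knockdown, without day 5 for Smarcc1.6, and without day 5 or day 6 for Smarcc1.7. The cause was not tested. Among the 10 genes no call changed direction under these alternatives. Ccnd3 with Smarcc1.7 passed with no filter, after centring and as log2(CPM + 1) (limma adjusted p = 0.0369, 0.0378 and 0.0493). At the depth of Smarcc1.7 on day 5, the shallowest library, changes in Cdkn2b, Cdk6 and Ccnd2 are limited by counts.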
